A study of Mus musculus with 14 samples.

Results

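Livers of old dwarf mice were set against livers of young wild type mice to ask how far an old, long-lived mutant liver lies from a young control liver. The comparison used 7 of the 14 arrays of the study, chosen by their titles: the 3 arrays of 22-month Snell dwarf mice (animals 3, 4 and 8) and the 4 arrays of 6-month wild type mice (animals 82, 84, 86 and 88). The remaining arrays came from 4 dwarf mice of 6 months (animals 83, 85, 87 and 89) and 3 wild type mice of 22 months (animals 1, 2 and 24). Each array held total liver RNA of 1 mouse, on an Affymetrix mouse array of 12488 probe sets. Snell dwarf mice are mutant for Pit-1, and the wild type mice served as their controls. The labels give no sex, strain or batch and no name of the allele, so a difference in any of these between the groups cannot be told apart from the groups. Genotype and age differ together between the 2 groups compared, so a difference can go with either or with both. P-values measure the spread between these mice only.

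Pit-1 (Pou1f1) is a transcription factor of the pituitary that is needed for the cells making growth hormone, prolactin and thyrotropin, and mice without its function stay small and live long. In the liver, growth hormone acts through its receptor, the kinase JAK2 and the transcription factor STAT5 on Igf1, on the acid-labile subunit gene Igfals and on many genes that differ between males and females. Thyroid hormone acts on a further set of liver genes, among them the deiodinase Dio1 and genes of fat synthesis. Because the mutation removes several pituitary hormones throughout life, their separate effects in the liver cannot be told apart here, and Pou1f1 itself was not analysed.

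Values are MAS5 signals as the authors deposited them, on a linear scale, and values of single mice below stand in the order of the animal numbers given above. Levels are compared within a probe set only, because the signals of different probe sets are not on a common scale. Log2 differences are old dwarf minus young wild type with the standard error from limma, adjusted p-values are Benjamini-Hochberg values over all 7227 probe sets tested, and a probe set or gene passed at an adjusted p under 0.05. Signals under 54.9 were set to that floor before taking logarithms. In whole liver, fewer cells of a type and less RNA per cell cannot be told apart. Albumin (Alb), the main secreted protein of hepatocytes, had signals of 46470.0, 39794 and 43174 in the old dwarf mice and 38093, 44826, 43121 and 45393 in the young wild type mice, ranges that overlapped. Of 17 hepatocyte markers tested 1 passed (Asgr2, 1.01 ± 0.19), and their summed signal was 273900 to 312400 against 256500 to 303800.

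Of 6 measures of the arrays themselves, 2 separated the old dwarf mice from every young wild type mouse but animal 88. The 18S ribosomal RNA control had signals of 418, 445 and 1049 in the old dwarf mice, against 74.5, 181.8 and 93 in wild type animals 82, 84 and 86 and 588 in animal 88. The 3' to 5' signal ratio of Gapdh, which reflects how intact the RNA was and how far labelling ran, was 0.890, 0.968 and 0.821 in the old dwarf mice, 1.31, 1.57 and 1.76 in animals 82, 84 and 86, and 0.811 in animal 88. The corresponding ratio of beta-actin overlapped (1.25 to 1.57 against 1.16 to 2.38, with animals 82 and 88 low), and so did the median signal (166.8 to 187.1 against 174.9 to 183.2), the 25th percentile and the share of probe sets at the floor. None of the 6 measures passed an exact two-sided permutation test between the groups (p = 0.171 for the 18S signal and 0.229 for the Gapdh ratio, 0.548 for each after adjustment over the 6). Their part in the results below was not tested beyond the fits with the 18S signal or the 3' to 5' ratio as a covariate and the fits without single arrays.

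The old dwarf livers lay farther from the young wild type livers than the young wild type livers lay from each other, and nearer than the young dwarf livers did. The mean absolute log2 difference over the probe sets tested, from each array to the mean of the young wild type arrays, was 0.444, 0.428 and 0.431 in old dwarf animals 3, 4 and 8. Each young wild type array was measured against the mean of the other 3, which gave 0.375, 0.352 and 0.326 for animals 82, 84 and 86 and 0.424 for animal 88, so that animal 88 was nearly as far from its own group as the old dwarf mice were. Old wild type mice lay at 0.409 ± 0.011 (SD, n = 3), a little nearer than the old dwarf mice at 0.434 ± 0.00866 (n = 3), and young dwarf mice at 0.520 ± 0.0491 (n = 4). The old dwarf mean exceeded the young wild type mean by 0.0650 (exact two-sided permutation p = 0.0571, the smallest that 3 against 4 arrays allow), exceeded the old wild type mean by 0.0253 (p = 0.1, the smallest for 3 against 3) and lay below the young dwarf mean (difference -0.0856, p = 0.0571). After adjustment over the 3 tests these were 0.0857, 0.1 and 0.0857. The values of the groups did not overlap in any of the 3 comparisons, although none could reach 0.05. The young dwarf arrays also had a higher median signal, 186.9, 207.2, 221 and 199.2, against 174.9 to 183.2 in young wild type mice. Its part in their distance was not tested beyond other scalings, under which the distances kept their direction.

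**Figure D1:**
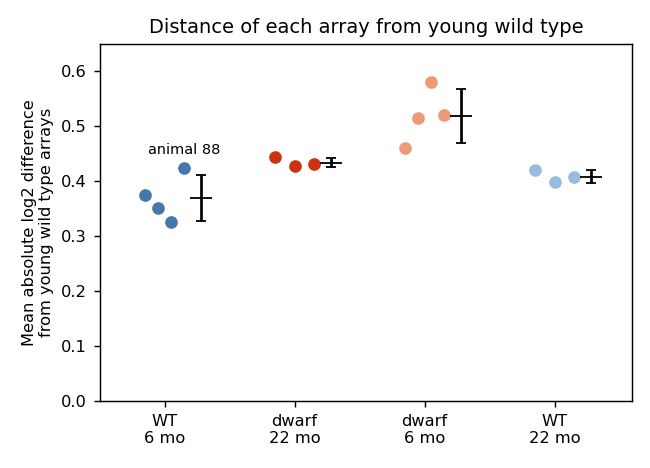
Mean absolute log2 difference of each array from the mean of the young wild type arrays (vertical axis, log2 units), by group, with 1 point per mouse and the group mean ± SD beside it; young wild type arrays were measured against the other 3. The 3 old dwarf points lie between 0.428 and 0.444, above all 4 young wild type points, of which animal 88 is the highest at 0.424, and below all young dwarf points.

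Across all features, 406 of 7227 probe sets (5.62%) passed, 221 higher (3.06%) and 185 lower (2.56%) in the old dwarf mice. Of these, 108 higher (1.49%) and 98 lower (1.36%) probe sets differed by at least 2-fold, and the values of the 2 groups did not overlap in 1381 probe sets (19.1%). With 1 probe set per gene, 162 of 5473 genes were higher (2.96%) and 145 lower (2.65%), and the median log2 difference of all genes was -0.01. The count rests on single mice: it was 164 without dwarf animal 3, 186 without dwarf animal 4, 227 without wild type animal 84, 263 without animal 86 and 698 without animal 88, which kept 393 of the 406. It was 113 with the 18S signal as a covariate, 108 of them among the 406, and 194 with the 3' to 5' ratio. Of 93 genes that were chosen by rule for naming and passed, 49 lost the call with the 18S covariate and 37 with the 3' to 5' covariate. Calls said below to be lost without a mouse may also be lost with a covariate. Counts of gene lists below are to be read against the 2.96% and 2.65% of all genes.

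The growth hormone and IGF axis was lower at its liver output and higher at an inhibitory binding protein. Of 16 genes tested 3 were lower (Igf1, Igfals and Socs2), 2 were higher (Igfbp1 and, named after its values were seen, the receptor gene Igf2r, 0.63 ± 0.14) and 11 did not pass, and the median log2 difference was -0.25. Igf1, the growth factor that liver secretes under growth hormone, had signals of 328, 273 and 617 in the old dwarf mice and 8743, 10811, 8833 and 7452 in the young wild type mice. The highest dwarf value was thus far below the lowest wild type value, and Igf1 was 23.3-fold lower (-4.54 ± 0.30, adjusted p = 1.11e-07). The other Igf1 probe set also passed, with -2.17 ± 0.18, so the size of the difference depends on the probe set. Igfals, whose product carries IGF-1 in blood, had 412, 130.1 and 377 in the old dwarf mice and 3419, 2739, 3303 and 3268 in the young wild type mice, with no overlap (11.6-fold lower, -3.54 ± 0.32, adjusted p = 3.12e-06). Socs2, the feedback inhibitor that growth hormone induces through STAT5, had 148, 149.7 and 88.5 against 310.3, 758, 444 and 304 (-1.75 ± 0.32, adjusted p = 0.00407), and its groups did not overlap although wild type animal 84 stood well above the other wild type mice. The growth hormone receptor Ghr overlapped between the groups and did not pass (-0.29 ± 0.13, adjusted p = 0.213). Its other probe set had the opposite sign and did not pass either (0.56 ± 0.38, adjusted p = 0.439).

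Among the binding proteins, Igfbp1, which insulin suppresses, was 4819, 5280.4 and 1773 in the old dwarf mice and 336, 283, 291 and 158 in the young wild type mice. Every dwarf value lay above every wild type value, with animal 8 the lowest of the dwarf mice, and Igfbp1 was 13.8-fold higher (3.79 ± 0.74, adjusted p = 0.00643). Igfbp2 did not pass, and its dwarf values split into 5985 and 6232 in animals 3 and 4 and 555 in animal 8, which lay below all wild type mice (1194, 1671, 2249 and 2993). Without animal 8 its difference passed (1.67, adjusted p = 0.0112). Igfbp3, the main carrier of IGF-1 in blood, was 247, 274 and 356 against 111, 40.4, 150.3 and 121, groups that did not overlap, but its difference of 1.49 ± 0.45 missed the threshold (adjusted p = 0.0659). Counts on this list were 3 lower and 1 higher without dwarf animal 4, and 2 lower and 0 higher with the 18S covariate, where Igfbp1 and Socs2 lost their call.

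STAT5 binds the palindrome TTCNNNGAA, which reads the same on both strands, and the promoters of 3 genes with large decreases are shown. Igfals and Keg1 were chosen because their promoters hold a match, and Hsd3b5 because its decrease was the largest. Other large decreases, Igf1 among them, are not shown, so these 3 genes give no share of matches among large decreases. Capitals mark matches, and each sequence is the 250 bases before the annotated start, 5′ to 3′ on the strand of the gene, from RefSeq on GRCm38.p6. Igfals is at chr17:24877981-24878230 (plus strand), with a match that begins 58 bases before the start:
Igfals: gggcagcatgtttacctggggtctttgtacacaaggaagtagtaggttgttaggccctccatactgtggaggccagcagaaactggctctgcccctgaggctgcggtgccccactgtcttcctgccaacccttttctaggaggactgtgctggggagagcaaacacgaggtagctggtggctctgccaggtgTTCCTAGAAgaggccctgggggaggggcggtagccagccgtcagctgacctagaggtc
Keg1 (a glycine N-acyltransferase-like gene) is at chr19:12695540-12695789 (plus strand), with matches that begin 173 and 107 bases before the start:
Keg1: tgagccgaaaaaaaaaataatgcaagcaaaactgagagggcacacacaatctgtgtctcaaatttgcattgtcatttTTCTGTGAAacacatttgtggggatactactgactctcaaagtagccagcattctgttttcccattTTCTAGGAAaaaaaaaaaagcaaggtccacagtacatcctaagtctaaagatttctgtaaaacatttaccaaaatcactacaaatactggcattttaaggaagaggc
Hsd3b5 (a steroid dehydrogenase with the largest decrease) is at chr3:98645535-98645784 (minus strand), with no match in this window:
Hsd3b5: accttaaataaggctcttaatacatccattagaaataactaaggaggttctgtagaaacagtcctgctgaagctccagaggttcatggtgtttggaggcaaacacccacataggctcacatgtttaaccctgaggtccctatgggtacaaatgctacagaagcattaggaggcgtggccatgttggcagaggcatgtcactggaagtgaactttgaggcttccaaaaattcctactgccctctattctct
The motif is in 2306 of all 32851 promoters of this length (7.02%). Among the named genes with an entry, it is in 8 of 52 promoters of genes that were lower and in 2 of 48 of genes that were higher. By gene, with a match in any of its promoters, these are 7 of 36 and 1 of 34, which do not compare with the share per promoter. Most of these genes were named for their differences. Other annotated starts of Igfals hold 1 match or none. A match describes letters only, and STAT5 binding was not measured.

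The sex-biased genes of the liver moved in opposite directions. Of 9 male-biased genes tested 6 were lower, 0 higher and 3 did not pass (median -2.08), and of 8 female-biased genes 7 were higher, 0 lower and 1 did not pass (median 2.61). The sex of the mice is not in the labels, so a different mix of sexes in the groups cannot be told apart from genotype or age. Hsd3b5, a male-biased 3-ketosteroid reductase, was 65.5, 108 and 146 in the old dwarf mice and 4603, 9521, 9938 and 4398 in the young wild type mice, the largest decrease of all genes that passed (65.5-fold, -6.03 ± 0.36, adjusted p = 4.50e-08). Egfr, the epidermal growth factor receptor, was on its brightest probe set below the floor on all old dwarf arrays and 1156, 1200.2, 1371 and 1372 on the young wild type arrays, at least 23.2-fold lower there (adjusted p = 1.25e-08). The other Egfr probe sets also passed, with -4.20 ± 0.25 and -2.22 ± 0.31, and on the last the old dwarf mean of 94.7 lay above the floor, so the size of the decrease depends on the probe set. The major urinary proteins carry pheromones into urine. Mup5 was 2652, 2436 and 4991 against 26343, 25998, 32508 and 29770.0 (-3.16 ± 0.24), and Mup3 was 7876, 7596 and 10086 against 31510.0, 36026, 38965 and 36915 (-2.08 ± 0.17). Neither overlapped between the groups, although their probe sets may also detect related family members.

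On the female-biased side the old dwarf mice reached levels that no young wild type mouse approached. The cytochrome P450 Cyp2b13, a steroid and drug hydroxylase, had 6274, 6060.5 and 4143 in the old dwarf mice and 128, 145, 24.8 and 144 in the young wild type mice, and was 49.0-fold higher (5.62 ± 0.38, adjusted p = 1.40e-07), the largest increase among genes that passed. Sult2a2, a sulfotransferase of steroids and bile acids, had 2428, 2459 and 2746 against 22.4, 84.6, 38.0 and 92.0 (5.19 ± 0.44), with 2 of the wild type values at the floor. Hao2, a peroxisomal hydroxy acid oxidase, had 1459, 1532 and 1378 against 273, 56.2, 111 and 143 (11.7-fold, 3.54 ± 0.41). All 3 dwarf mice were close together for Hao2, while the wild type mice differed among themselves. With the 18S covariate 4 of the 7 female-biased genes passed; under each left-out array 5 or more did.

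**Figure D2:**
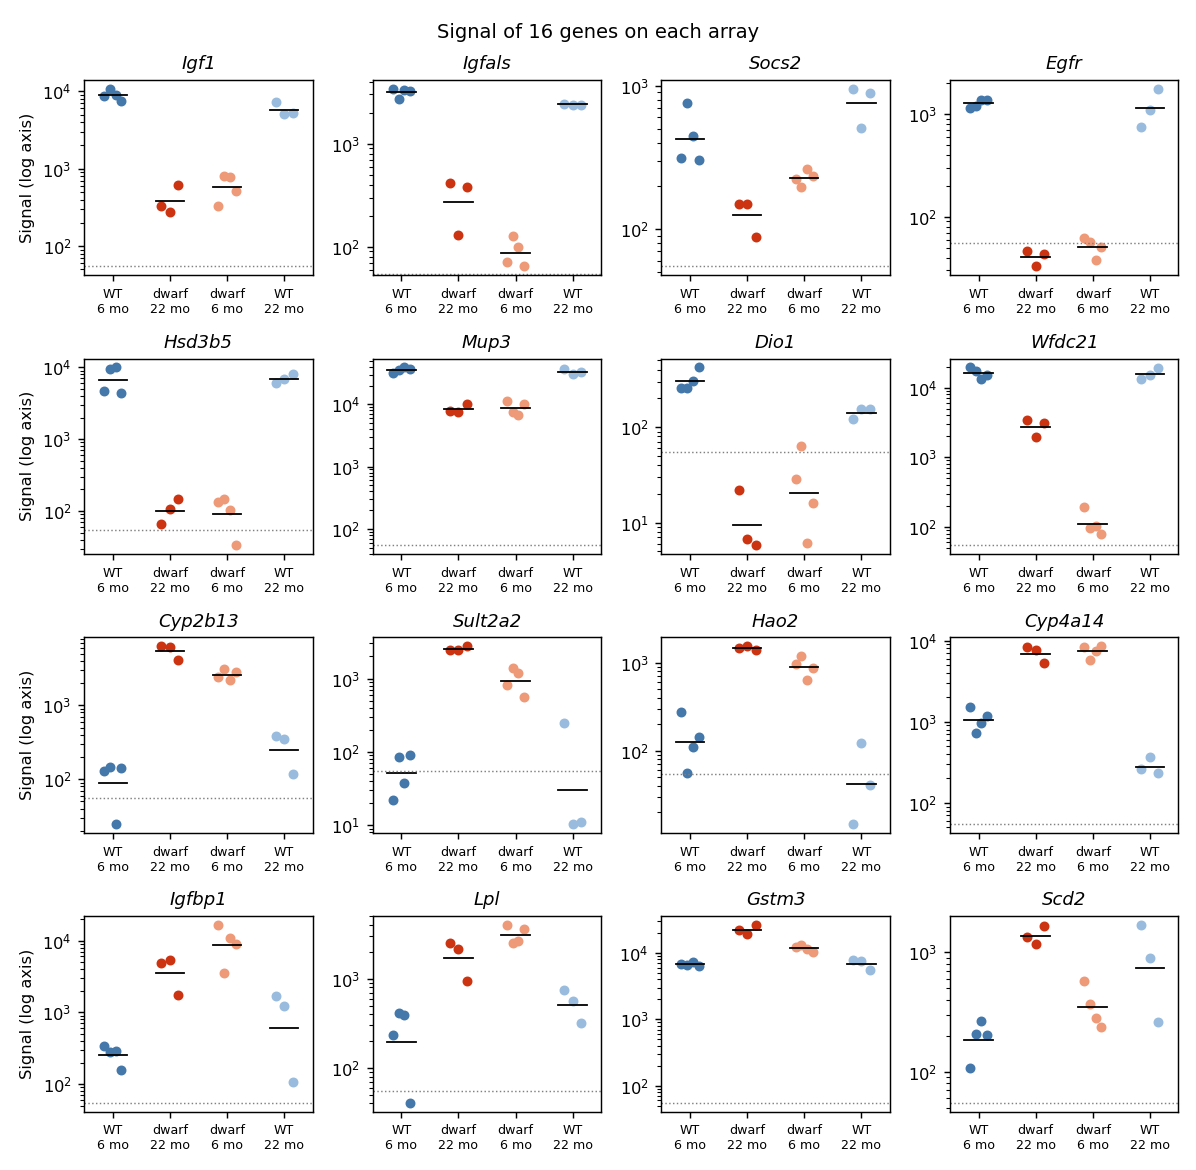
Signal (log axis) of 16 genes on each array, by group, with 1 point per mouse, a line at the mean of the logs and the floor of 54.9 dotted. Igf1, Igfals, Egfr, Hsd3b5 and Mup3 lie lower in both dwarf groups than in both wild type groups, Cyp2b13, Sult2a2, Hao2 and Cyp4a14 lie higher, and Scd2 is high in old dwarf mice and in 2 of the 3 old wild type mice.

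Thyroid hormone responsive genes were lower in part: of 11 tested 3 passed lower (Dio1, Me1 and Klf9), 0 higher and 8 did not pass, with a median of -0.70. Dio1, the liver deiodinase that thyroid hormone induces, was 255, 254, 306 and 422 in the young wild type mice and below the floor in all 3 old dwarf mice (at least 5.51-fold lower, adjusted p = 3.52e-04). Me1, the malic enzyme that supplies NADPH to fat synthesis, was 867, 1174 and 1745 against 2705, 3454, 3577 and 2578 (-1.33 ± 0.35, adjusted p = 0.0359). Thrsp, a regulator of fat synthesis that responds to thyroid hormone, was 2090.2, 3131 and 7178 against 5364, 11451, 10476 and 10878 and did not pass (-1.34 ± 0.43, adjusted p = 0.0858); dwarf animal 8 lay above wild type animal 82. Klf9, a transcription factor induced by thyroid hormone, had -0.76 ± 0.20, and its other probe set gave -0.07 and did not pass. Without dwarf animal 3, or without wild type animal 84 or 86, Dio1 alone of this list passed.

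Of the fatty acid synthesis genes 18.8% passed, in both directions, against 5.61% of all genes tested. Of 16 fatty acid synthesis genes 2 were lower (Me1 and Elovl5), 1 was higher (Scd2) and 13 did not pass (median -0.15). Elovl5, an elongase of polyunsaturated fatty acids, was 10433, 9931 and 14231 against 20687, 21068, 21584 and 21529 (-0.90 ± 0.23, adjusted p = 0.0295), with no overlap. Scd2, a stearoyl-CoA desaturase found mainly outside the liver, was 1336, 1169.9 and 1663 against 107, 208, 265 and 201 (7.41-fold higher, 2.89 ± 0.48, adjusted p = 0.00201). Srebf1, the transcription factor that drives fatty acid synthesis, had -0.49 ± 0.25 and did not pass. Me1 and Elovl5 lost their call without dwarf animal 3 or 4 or without wild type animal 82, 84 or 86. Lpl, the lipase that releases fatty acids from circulating triglyceride and is normally low in adult liver, was 2548, 2142 and 944 against 232, 408, 398 and 40.6 (3.02 ± 0.55, adjusted p = 0.00415), with animal 88 the lowest wild type mouse.

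Cholesterol synthesis stood near the background, with 1 of 16 genes higher, 0 lower and a median of 0.13. The gene was Dhcr7, the last enzyme of the pathway (665, 633 and 849 against 358, 398, 304 and 396, 0.97 ± 0.22). Its call was lost without dwarf animal 3 or 8 or wild type animal 86, and with either covariate. In old wild type mice Dhcr7 was 1295, 1124 and 946, above every old dwarf mouse. Bile acid synthesis and transport had 3 of 13 genes lower, 0 higher and a median of -0.24. These were Abcb4, which exports phospholipid into bile (1637, 1518 and 1420.1 against 3992, 3274, 3536 and 2454, -1.10 ± 0.17), the oxysterol hydroxylase Cyp7b1 (-1.42 ± 0.27) and Slc10a1, the main importer of bile acids (-0.78 ± 0.19; the other probe set, at -0.49, did not pass). Abcb4 did not overlap between the groups, and Slc10a1 lost its call without any of dwarf animals 3, 4 and 8 and wild type animals 84 and 86. Cyp7a1, which catalyses the limiting step from cholesterol to bile acids, ranged from 25.1 to 427 among the wild type mice and did not pass (0.94 ± 0.52, adjusted p = 0.33); without animal 88 it did (adjusted p = 0.0492).

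Genes of drug and toxin metabolism were higher in part, and most members did not pass. Of 19 genes under control of the drug-sensing nuclear receptors CAR and PXR 9 were higher, 0 lower and 10 did not pass (median 0.57), and of 17 glutathione transferases 6 were higher, 1 lower (Gstm5, -0.68 ± 0.16, named after its values were seen) and 10 did not pass (median 0.36). Nr1i3, which encodes CAR itself, was 6662, 6334 and 4946 in the old dwarf mice and 2004, 2165, 2160.5 and 4433 in the young wild type mice (1.22 ± 0.24, adjusted p = 0.00764), and animal 88 lay about midway between the other wild type mice and the dwarf mice. Cyp2b13, given above, and Gstm3 stand on more than 1 list, so these counts are not independent. The same holds for Me1, given above, and for Cyp4a14 (female-biased and PPAR-alpha lists) and Ehhadh (PPAR-alpha and peroxisomal lists), given below. Cyp2b9 was 7129.5, 7826 and 6522 against 3120.3, 692, 676 and 1684 (2.51 ± 0.48), and Cyp2c39, a retinoic acid and drug hydroxylase, had 1.11 ± 0.18. Glutathione transferases couple reactive compounds to glutathione. Gstm3 was 22548, 19082 and 26268 against 6805, 6677, 7297 and 6298 (3.32-fold higher, 1.73 ± 0.15, adjusted p = 1.58e-06), a wide gap beside a narrow wild type range. The membrane-bound Mgst3 was 3172, 3318 and 2788 against 771, 500.3, 514 and 828 (2.28 ± 0.22, adjusted p = 6.18e-06). Gstt1 (1.11 ± 0.20) and Gstm1 (0.62 ± 0.13) were higher by smaller amounts, and the other Gstm1 probe set gave 0.00 and did not pass (adjusted p = 0.996). Without dwarf animal 3, 4 CAR and PXR genes and 3 glutathione transferases passed as higher; Gstm1 and Nr1i3 were among those that lost the call. Without dwarf animal 4 or wild type animal 84, 4 glutathione transferases passed as higher, and the 18S covariate left 3 and 4 on the 2 lists.

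Fatty acid breakdown was higher in a part of its genes. Of 16 genes of mitochondrial fatty acid oxidation 4 were higher, 0 lower and 12 did not pass (median 0.14). Acadm, which starts the oxidation of medium-chain fatty acids, was 17027, 15693 and 15292 against 10038, 8027, 8875 and 10142 (0.79 ± 0.12, adjusted p = 0.00122) and kept its call under every alternative run. Etfa, which passes electrons from these dehydrogenases (0.73 ± 0.15), the hydratase Echs1 (0.83 ± 0.21) and the dehydrogenase Hadh (0.53 ± 0.13) were also higher; Echs1 and Hadh lost the call without dwarf animal 3 or 4 or wild type animal 84, Echs1 also without dwarf animal 8 or wild type animal 82, and Hadh also without animal 86. With either covariate Etfa, Echs1 and Hadh lost the call, and Acadm alone of this list passed. The list median was then -0.07 with the 18S covariate and 0.03 with the 3' to 5' covariate. Of 13 PPAR-alpha targets 3 were higher, 1 lower and 9 did not pass, and the median was -0.28, opposite in sign to the majority of calls. The omega-hydroxylases Cyp4a14 (8221, 7569.7 and 5295 against 1534, 729.5, 961 and 1191, 6.49-fold higher, 2.70 ± 0.24, adjusted p = 2.74e-06) and Cyp4a10 (2.09 ± 0.45) led the list. Plin2, which coats lipid droplets, was lower (5471, 5784 and 6372 against 10833, 9154, 10510.0 and 13841, -0.90 ± 0.21), and the receptor gene Ppara itself did not pass (-0.48 ± 0.17). Without dwarf animal 3 or dwarf animal 4 this list had 1 higher and 0 lower.

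Peroxisomal fatty acid oxidation had 2 of 13 genes higher and 1 lower (median 0.11). Abcd3, a peroxisomal membrane transporter, was lower (8215, 7361 and 7781 against 15007, 17102, 19732 and 15652, -1.11 ± 0.14, adjusted p = 1.89e-04), and its relative Abcd2 was higher (318, 205 and 253 against 31.6, 104, 66.8 and 39.3, 1.91 ± 0.49). Ehhadh, the bifunctional enzyme, was higher (0.82 ± 0.22, adjusted p = 0.0371). The calls of Abcd2 and Ehhadh were lost without any 1 of the 3 dwarf mice, and also without wild type animal 82; that of Ehhadh also without animal 84 and that of Abcd2 without animal 86. Abcd3 kept its call throughout.

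Enzymes of antioxidant defence were higher in 5 of 20 genes tested, with 0 lower and a median of 0.13. Gpx4, which reduces lipid peroxides, was 2069, 2150.0 and 2063 against 1563, 1285, 1243 and 1307 (0.64 ± 0.14), and glutathione reductase Gsr had 0.57 ± 0.14. The thioredoxin reductase Txnrd1 (0.60 ± 0.16) and the secreted peroxidase Gpx3 (1.62 ± 0.43) also passed, as did the mitochondrial peroxiredoxin Prdx3 (0.51 ± 0.14, named after its values were seen). The count of this list changed with single mice: none of its genes passed without dwarf animal 3 or without dwarf animal 4, 1 without dwarf animal 8, and 2 without wild type animal 84 or 86. Without wild type animal 88 there were 4 higher and 2 lower with a median of 0.01, and array weights gave 6 higher and 2 lower. With either covariate the count was 0. In young dwarf against old wild type mice, taken up below, Gsr (-0.56 ± 0.14) and Txnrd1 (-0.595 ± 0.16) passed as lower. For these genes the 22-month group was thus the higher in both comparisons. Txnrd1 was 1202, 1187 and 1328 in old dwarf mice and 1177, 1242 and 1192 in old wild type mice.

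Sulfur amino acid metabolism held calls in both directions. Of 14 genes of the methionine cycle and one-carbon group 2 were higher, 1 lower and 11 did not pass (median 0.11). Cdo1, which oxidises cysteine, was 17894, 17374 and 16328 against 9513, 10308, 11051 and 9765 (0.76 ± 0.13, adjusted p = 0.00323). Csad, the decarboxylase that acts next on the path to taurine, was lower (671, 631 and 758 against 1036, 1773, 1120.1 and 1375, -0.92 ± 0.17, adjusted p = 0.00405). Both kept their calls under all alternatives. Gnmt, the glycine N-methyltransferase that consumes S-adenosylmethionine, was higher (22054, 21261 and 20037 against 12245, 11830.0, 12664 and 16120.0, 0.69 ± 0.14). The Gnmt call was lost without dwarf animal 3 and with either covariate. Without wild type animal 88, 4 genes of the list were higher. Of 16 genes of the urea cycle and amino acid breakdown 2 were higher, Oat (1.26 ± 0.29) and Bckdhb (0.55 ± 0.14), and 1 was lower, the histidine ammonia-lyase Hal (-0.72 ± 0.16), with a median of 0.05. Both higher calls were lost without dwarf animal 3 or 4 or without wild type animal 84. That of Bckdhb was also lost without dwarf animal 8 or wild type animal 82 or 86, and that of Hal without dwarf animal 4 or 8. With either covariate no gene of the urea cycle and amino acid list passed. Of 13 genes of glucose production and glycolysis 1 was lower, the gluconeogenic enzyme Pck1 (1329.5, 1144 and 1742 against 2774, 2796, 2703 and 3048, -1.03 ± 0.23). The Pck1 call was lost without dwarf animal 3 or 4 and with the 18S covariate.

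**Figure D3:**
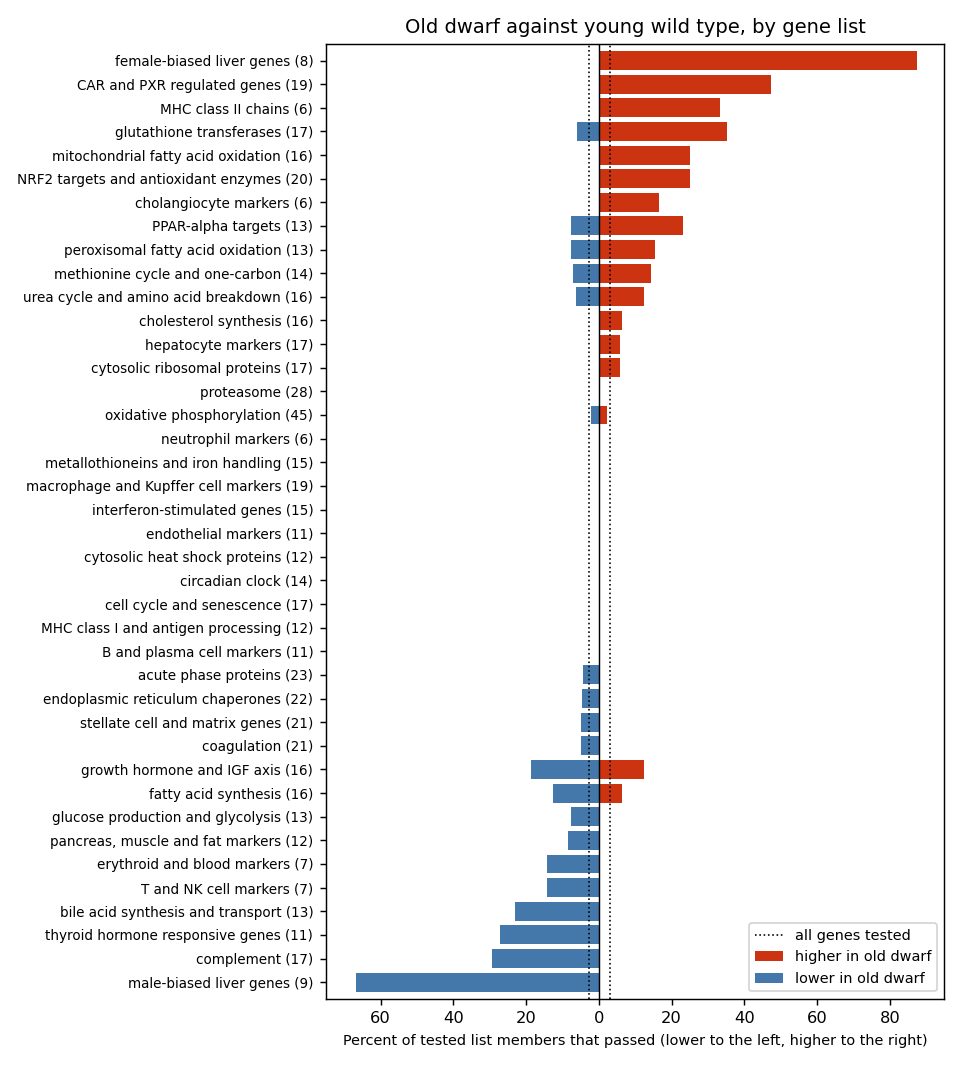
Percent of the tested members of each gene list that passed in old dwarf against young wild type mice, higher to the right and lower to the left (horizontal axis, percent; the number tested is in brackets), with dotted lines at the 2.96% and 2.65% of all genes. The female-biased list extends farthest to the right, with 87.5% higher, and the male-biased list farthest to the left, with 66.7% lower.

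Complement, the plasma cascade that the liver supplies, was lower in 5 of 17 genes, with 0 higher and a median of -0.34. C9, which forms the pore of the membrane attack complex, was 3639, 2137 and 3626 in the old dwarf mice and 10133, 12988, 11117 and 12210.0 in the young wild type mice (3.80-fold lower, -1.93 ± 0.19, adjusted p = 9.82e-06). The protease C1ra was 1139.8, 1292 and 1191 against 2216, 2736, 2518 and 1997 (-0.96 ± 0.14, adjusted p = 7.95e-04; the other C1ra probe set, at -0.21 ± 0.27, did not pass), and Serping1, the inhibitor of C1, was 8028, 6959 and 5811 against 15131, 12859, 11066 and 13709 (-0.93 ± 0.16). In none of these did the groups overlap. The pore component Hc had -0.64 ± 0.16 and was named after its values were seen. C8g had -0.79 ± 0.17 and lost its call without dwarf animal 8 and with either covariate. In each of these fits 3 genes of the list passed. Other plasma proteins stood near the background. Of 23 acute phase proteins 1 was lower, the pentraxin Apcs (5382, 4822 and 4715 against 15196, 13030.0, 8976 and 8179, -1.15 ± 0.25), and of 21 coagulation genes 1 was lower, the clotting factor F9 (-0.62 ± 0.14). The call of Apcs was lost without dwarf animal 4 and with either covariate. That of F9 was lost without dwarf animal 3 or 4 or wild type animal 82 or 86, and with the 18S covariate. Without wild type animal 86, 4 acute phase proteins passed as lower. Orm1, an acute phase glycoprotein, was 4688, 4121 and 5142 against 12047, 8336, 5984 and 8778; the groups did not overlap, and the difference did not pass (-0.88 ± 0.45, adjusted p = 0.289).

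Of the antigen presentation genes, MHC class II chains were higher in 2 of 6 genes (median 0.71), whereas of 12 MHC class I and antigen processing genes and 15 interferon-stimulated genes none passed (medians -0.26 and -0.46; 1 and 2 had an unadjusted p under 0.05 in limma). H2-Aa was 643, 523 and 363 against 151, 47.5, 79.3 and 91.9 (2.49 ± 0.42, adjusted p = 0.00224), and its partner chain H2-Ab1 was 343, 259.7 and 278 against 99.8, 104, 113 and 96.5 (1.50 ± 0.41, adjusted p = 0.0436). The call of H2-Ab1 was lost without any 1 of the 7 arrays. The summed signal of the 6 chains was 3486 to 4202 in the old dwarf mice and 1937 to 3468 in the young wild type mice. Of 19 macrophage and Kupffer cell markers and 11 B and plasma cell markers none passed (1 and 2 had an unadjusted p under 0.05, and 1 macrophage marker was lower without dwarf animal 3), and their sums overlapped (8796 to 10290 against 8244 to 13530, and 5228 to 5826 against 5191 to 6330). The immunoglobulin segment Igkv6-23, which is not on the B and plasma cell list, was higher without overlap (1531, 2011 and 671 against 476, 293, 211 and 289, 2.07 ± 0.38, adjusted p = 0.00464). The part of these cells in the class II result was not tested.

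For other cell types, none of 11 endothelial and 6 neutrophil markers passed, and 1 of each had an unadjusted p under 0.05 in limma. Of 7 T and NK cell markers Zap70 alone passed, a kinase of T cell receptor signalling (64.6, 117 and 55.0 against 1148, 1397, 1708 and 878, -4.06 ± 0.29, adjusted p = 2.64e-07). The other Zap70 probe sets gave -1.56, which also passed, and -0.11, which did not. The T cell receptor genes Cd3d, Cd3e and Cd3g did not pass the signal filter. The summed T and NK signal was 865 to 1192 in the old dwarf mice against 1663 to 2910 in the young wild type mice, of which Zap70 gave 878 to 1708. Single genes passed among stellate cell and matrix genes (Col15a1, -1.70 ± 0.37, 1 of 21; lost without dwarf animal 8), cholangiocyte markers (Tff3, 1 of 6), erythroid markers (Alas2, -1.10 ± 0.22, 1 of 7) and pancreas, muscle and fat markers (the elastase Cela1, -1.68 ± 0.25, 1 of 12). Summed signals of these 4 lists overlapped between the groups.

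Young dwarf against old wild type mice has the genotypes the same way round and the ages reversed. It shares no array with old dwarf against young wild type, but both come from 1 limma fit. They share its estimate of the spread of each probe set, so calls in both are not independent. In young dwarf against old wild type 1830 probe sets passed (25.3%). Of these, 159 had passed the same way in old dwarf against young wild type, which is 39.2% of the 406 and 8.69% of the 1830. A further 64 passed in opposite directions (15.8% of the 406 and 3.5% of the 1830), and 183 passed in old dwarf against young wild type alone. The opposite-way share was 17.2% of the 221 higher and 14.1% of the 185 lower probe sets. With 1 probe set per gene, 731 of all 5473 genes passed as higher in young dwarf against old wild type and 653 as lower. Same-way and opposite-way counts are to be read against these. By direction, 99 of 185 lower probe sets (53.5%) and 60 of 221 higher ones (27.1%) passed the same way. The sign alone was shared by 70.3% of the lower and 49.8% of the higher probe sets, against 42.3% of all tested. The same-way count was 94 without dwarf animal 3, 98 without dwarf animal 4, 94 with the 3' to 5' covariate and 42 with the 18S covariate.

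Ranked by the difference in old dwarf against young wild type, the largest decreases that passed the same way in both comparisons were in Hsd3b5, Igf1, Egfr, Zap70, Dct and Serpina12, and the largest such increases in Cyp2b13, Sult2a2, Igfbp1, Hao2, Pcp4l1 and Lpl. For Hsd3b5 the log2 difference was -6.03 ± 0.36 in old dwarf against young wild type and -6.08 ± 0.36 in young dwarf against old wild type, nearly the same size. Serpina12, a serpin secreted by fat and liver also called vaspin, had -3.59 ± 0.36 (112, 122 and 452 against 2170.3, 2519.6, 2676 and 1632) and -5.92 ± 0.36, and all 4 young dwarf mice lay at the floor. Dct, dopachrome tautomerase, had -4.01 ± 0.44 (92.3, 49.4 and 187 against 1736, 1676, 1491 and 1454) and -2.95 ± 0.44. Among the increases Lpl had 3.02 ± 0.55 and 2.61 ± 0.55, and Igfbp1 3.79 ± 0.74 and 3.84 ± 0.74. Cyp2b13 had 5.62 ± 0.38 and 3.37 ± 0.38, and Cyp4a14 2.70 ± 0.24 and 4.73 ± 0.24. Igfals, next in rank among the decreases, had -3.54 ± 0.32 and -4.79 ± 0.32. All of these genes passed in both comparisons.

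**Figure D4:**
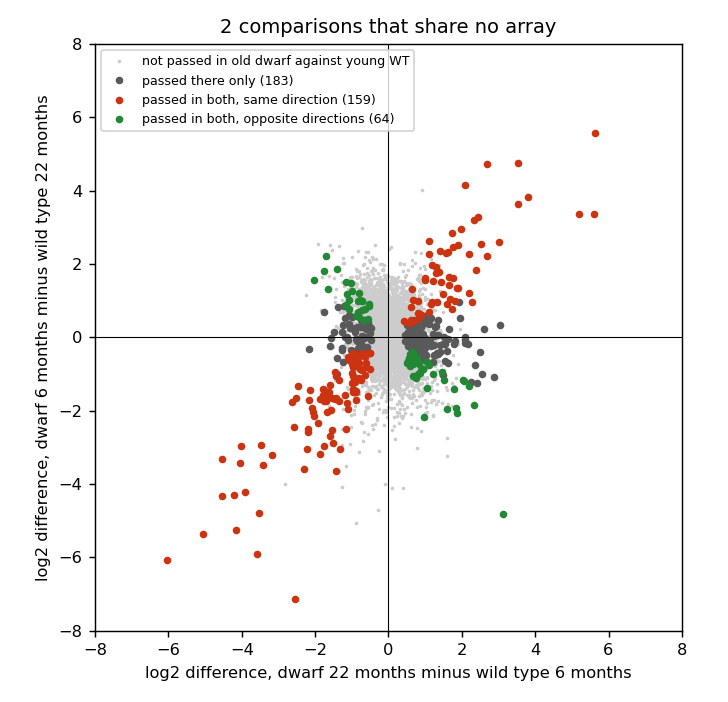
Log2 difference of each probe set in old dwarf against young wild type (horizontal axis) and in young dwarf against old wild type (vertical axis), 2 comparisons with no array in common. The 159 probe sets that passed in the same direction lie in the lower left and upper right, the 64 that passed in opposite directions in the other quadrants, with Tff3 the farthest of these at 3.13 and -4.81.

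Opposite directions mean that the 22-month group was the higher, or the lower, in both comparisons. Tff3, a trefoil peptide of mucosal repair, was 614, 281 and 1369 in old dwarf and 6542, 3963 and 2786 in old wild type mice, against 104, 48.2, 61.4 and 71.6 in young wild type mice; the differences were 3.13 ± 0.56 and -4.81 ± 0.56. Actb, beta-actin, was 1234, 1647 and 1234 in old dwarf and 1975, 1834 and 1651 in old wild type mice, 377, 351, 367 and 852 in young wild type mice and 279 to 955 in young dwarf mice (1.59 ± 0.35 and -1.95 ± 0.35), with animal 88 again the highest young wild type mouse. Igkv6-23 (2.07 ± 0.38 and -1.18 ± 0.38), the actin-nucleating subunit Arpc4 (1.79 ± 0.43 and -1.41 ± 0.43), the stress-responsive chaperone Fkbp5 (1.46 ± 0.32 and -0.96 ± 0.32) and Wfdc2 (1.85 ± 0.50 and -1.93 ± 0.50) were the other large ones. Wfdc2 differs from these in that old wild type mice (451 to 962) did not exceed young wild type mice (243 to 1033).

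Among the decreases of this kind, Uqcrc2, a core subunit of respiratory complex III, was 1821, 1981 and 1864 in old dwarf and 2196, 1721 and 1527 in old wild type mice, against 3060.4, 5580.2, 5556 and 3396 in young wild type mice (-1.17 ± 0.22 and 1.52 ± 0.22). Gapdhs, annotated as the sperm form of the glycolytic enzyme, had -1.66 ± 0.30 and 1.33 ± 0.30, and Ercc1, a DNA repair endonuclease subunit, -1.71 ± 0.43 and 2.22 ± 0.43. For Ercc1 the young wild type values ran 549, 451, 220.2 and 110.0, so that animal 88 lay next to the old mice. The adaptor Ldb2 (-1.17 ± 0.25 and 0.89 ± 0.25), the G protein regulator Rgs19 (-1.14 ± 0.22 and 1.17 ± 0.22) and the calpain inhibitor Cast (-1.07 ± 0.26 and 1.01 ± 0.26) followed. Pck1 (1.48 ± 0.23) and Hal (0.98 ± 0.16) also passed the opposite way in young dwarf against old wild type. Of the genes given above as higher, so did Dhcr7 (-2.17 ± 0.22), Gsr (-0.56 ± 0.14) and Txnrd1 (-0.595 ± 0.16). Rpl10a, given further below, also did (-0.58 ± 0.18).

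The number of opposite-way probe sets changed with single arrays and with either covariate. For 67.2% of the 64 the young wild type array nearest to the old dwarf mean was that of animal 88, against 47.8% of the 406 called, 35.2% of the 159 same-way probe sets and 35% of all tested. Their number was 181 without animal 88, and 40, 28 and 33 without wild type animals 82, 84 and 86. It was 13, 22 and 39 without dwarf animals 3, 4 and 8, and 47, 42 and 47 without old wild type animals 1, 2 and 24. It was 5 with the 18S covariate and 10 with the 3' to 5' covariate. Age and these array measures cannot be told apart in these samples.

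For several genes the old dwarf mice lay nearer to the young wild type mice than the young dwarf mice did. The interaction of genotype and age, the genotype difference at 22 months minus that at 6 months, passed for 158 of 7227 probe sets (2.19%). The interaction shares arrays with old dwarf against young wild type, so no count of genes passing in both is given. Wfdc21, a secreted whey acidic protein-domain protein, was 19404, 17318, 13104 and 15077 in young wild type mice, 3416, 1959 and 3084 in old dwarf mice and 78.2 to 196 in young dwarf mice. Its old dwarf values lay between the other 2 groups without overlap, with -2.55 ± 0.27 against young wild type and an interaction of 4.67 ± 0.38 (adjusted p = 1.39e-05). Thrsp was 189 to 675 in young dwarf mice against 2090.2, 3131 and 7178 in old dwarf mice (interaction 4.42 ± 0.61, adjusted p = 0.00304), and Orm1 was 142 to 918 against 4688, 4121 and 5142 (interaction 3.65 ± 0.64, adjusted p = 0.00878). Me1 (2.58 ± 0.50), Elovl5 (1.57 ± 0.32) and Igfals (2.05 ± 0.45) showed the same order of groups, young dwarf lowest.

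Other genes with an interaction had other orders of the groups. Anxa8, an annexin, was 624, 540.0 and 535 in old dwarf mice and 34.1 to 175.5 across all other arrays (2.08 ± 0.40 against young wild type, interaction 3.82 ± 0.56, adjusted p = 0.00304). Ehhadh was highest in old dwarf mice as well (interaction 1.96 ± 0.31, adjusted p = 0.00413). H2-Aa was lowest in young wild type mice, and its old dwarf values lay within the young dwarf range of 289 to 1209.6 and below the old wild type values (interaction -3.88 ± 0.59, adjusted p = 0.00379). Igfbp2 was 9311 to 18452 in young dwarf mice, above all old dwarf values (interaction -3.55 ± 0.87, adjusted p = 0.0456), and Ghr was 3502 to 4393 in young wild type, 2989 to 3573 in old dwarf, 2441 to 2978 in young dwarf and 2451 to 2687 in old wild type mice (interaction 0.88 ± 0.18, adjusted p = 0.0225). The array measures that go with age were not part of these interaction fits.

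**Figure D5:**
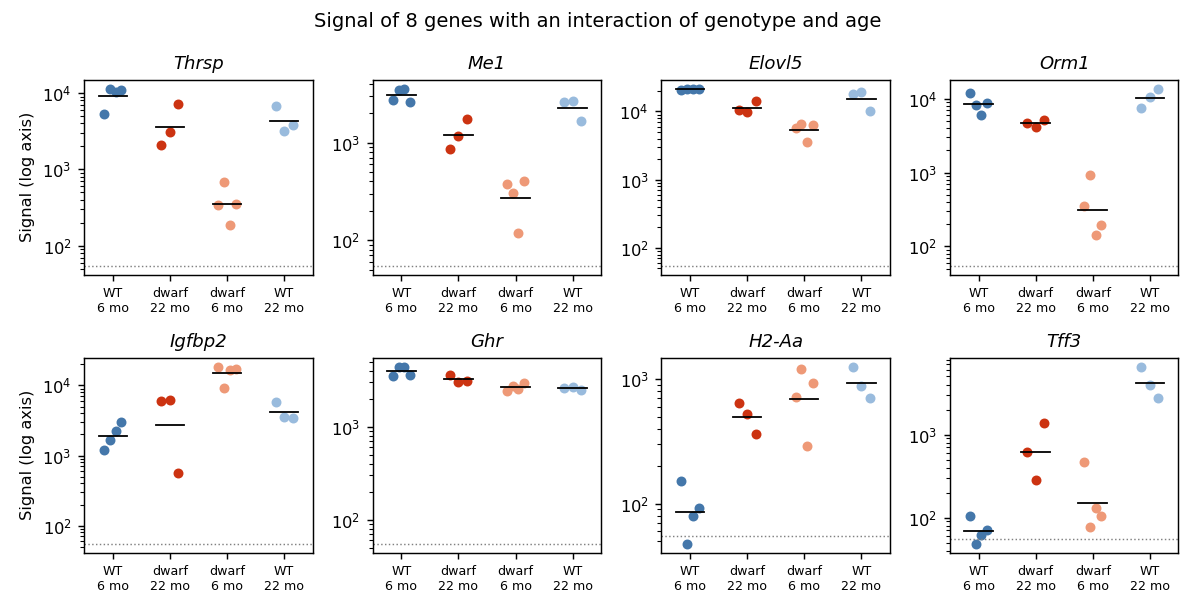
Signal (log axis) on each array of 8 genes for which the interaction of genotype and age passed, by group, with 1 point per mouse, a line at the mean of the logs and the floor dotted. For Me1, Elovl5 and Orm1 the old dwarf points lie between those of young wild type and young dwarf mice, for Thrsp they do so apart from animal 8, which lies above 1 wild type mouse, and for H2-Aa the young wild type points lie below all others.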

How the data were processed

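Liver RNA of 14 mice was measured on 1 Affymetrix array each. The authors deposited linear signal intensities of 12488 probe sets, which come from MAS5 per the submitters' processing notes; the version, detection calls and array batches are not given in the sources used here. The 2% trimmed mean per array was 500.357 to 500.437, so the intensities were used as deposited. The median signal was 167 to 221, and 19.5% to 27.9% of probe sets lay under the floor; the number of arrays limits the precision.

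Signals under 54.9 (the pooled 25th percentile) were set to it and log2 taken. After 66 controls were left out, the 7227 probe sets above 184.8 (the pooled median) on at least 3 arrays were tested with limma 3.58.1 in R 4.3.3: 1 mean per group over all 14 arrays, eBayes with an intensity trend, Benjamini-Hochberg within each contrast. A fold against a group wholly under the floor is a lower bound. In the array annotation 10855 probe sets had 1 symbol, 396 several and 1237 were not listed; a gene was represented by its tested probe set of highest mean signal (5473 genes). Probe sets of Igf1, Igfbp1, Egfr, Zap70, Mup3, Mup5, Cyp4a10, Scd2, Nr1i3, Actb, Uqcrc2 and some others carry a suffix for sets that may detect related transcripts.

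Named genes were the 15 largest non-overlapping changes in each direction, up to 4 called members of each of 40 lists with the smallest p, 18 genes of endocrine and lipid regulation, and the largest genes by agreement with young dwarf against old wild type mice or by interaction. The groups compared, the lists and the rule were chosen with earlier results of these data known, so counts on the lists are descriptions. Distances and array measures were compared with exact permutation tests. Alternatives were other scalings, floors, filters and variance models, array weights, the 7 arrays alone, 2 covariates of array quality and leaving out each array; those without a 6-month dwarf or 22-month wild type array were added after seeing the data. The steps were tested on simulated data. Promoters are from RefSeq on GRCm38.p6, matched by gene identifier.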

Additional observations from a re-analysis of the deposited data

Results flagged for a closer look

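Among the 4 young wild type mice, the compared group large enough for Dixon's test, 1 mouse stood far from the others for 7 of the named genes and 1 array measure, of 111 values tested; chance flags about 1 in 20. The gap of the extreme mouse to the nearest other, as a share of the group's range, was 0.947 for Actb, 0.971 for Alas2 (4084 against 2985 to 3016), 0.934 for Nr1i3 and 0.958 for Srebf1 (9011 against 5485 to 5632), in each case with animal 88 the highest. It was 0.858 for Cyp2b13 (animal 86 at 24.8), 0.859 for Gucy2c (animal 82 at 93.7), 0.84 for Thrsp (animal 82 at 5364) and 0.855 for the median signal per array (animal 84 at 183.2 against 174.9 to 176.1).

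The genotype difference at 22 months differed from that at 6 months, by an interaction that passed in limma, for 25 named genes. Several of these were named for the size of their interaction, and others for calls in comparisons that share its arrays. The 25 are therefore a list and not a rate, and over all probe sets 158 of 7227 passed (2.19%). On the log2 scale the interaction was above 0, with the old dwarf to old wild type difference the more positive, for Wfdc21 (4.67), Thrsp (4.42), Anxa8 (3.82), Orm1 (3.65), the water channel Aqp4 (3.37), Wfdc2 (3.37), Me1 (2.58), Igfals (2.05), Ehhadh (1.96), Alas2 (1.89), Cyp4a14 (1.83), Elovl5 (1.57), Plin2 (1.29), Abcd3 (1.19), C8g (1.17), C9 (1.10), Gstm3 (0.90) and Ghr (0.88). It was below 0 for H2-Aa (-3.88), Tff3 (-3.82), Igfbp2 (-3.55), Ahnak (-2.80), Il1rn (-2.78), Igkv6-23 (-2.41) and Gucy2c (-1.95). Aqp4, Orm1, Thrsp, Igfbp2 and Ghr are among these although none of the 5 passed in old dwarf against young wild type.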

How the results depend on the processing

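The distances kept their direction under every alternative run. The count of 406 was 326 to 427 under other scalings, floors, filters and variance models and with the 7 arrays alone; array weights gave 974 (527 higher, 447 lower) and 227 opposite-way probe sets. With the 18S covariate it was 113 (56 higher, 57 lower), with 329 in young dwarf against old wild type, 42 same way and 5 opposite way. With the 3' to 5' covariate it was 194 (105 higher, 89 lower), 831, 94 and 10. Leaving out 1 array gave 164 to 698 called (74 to 397 higher, 90 to 301 lower), 1172 to 1942 in young dwarf against old wild type, 94 to 175 same way and 13 to 181 opposite way. Of 93 named genes called, 42 (19 higher, 23 lower) kept the call under every one of the 20 alternatives that leave out none or 1 of the 7 arrays in which they were tested (19 for Csrp3, Dio1, Gucy2c and Stmn1), and none reversed. Values with no call changed sign for Alb (-0.0124 with the 3' to 5' covariate, -0.0448 without dwarf animal 3, -0.0454 without wild type animal 82, range to 0.0671 over left-out arrays), Aqp4 (-0.26 with array weights, -0.346 without dwarf animal 8, -0.141 without animal 88, range to 0.378) and Igfbp2 (-0.0419 and -0.0710 without dwarf animals 3 and 4, range to 1.67). The causes were not tested.

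Precision is limited by 3 against 4 mice, and signals near the floor give only bounds. No paired analysis was possible because the groups share no animal number. Genotype, age and array measures that go with age cannot be told apart in this comparison, and sex and batch are not in the labels.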

Other observations

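Several of the largest differences between old dwarf and young wild type mice fall outside the gene lists above. Pcp4l1, a small gene related to the calmodulin regulator Pcp4, was 1750.3, 1506 and 465 in the old dwarf mice and 144, 35.7, 166 and 32.1 in the young wild type mice (3.54 ± 0.46, limma adjusted p = 2.21e-04), with animal 8 the lowest dwarf mouse. Gucy2c, the guanylate cyclase receptor of the gut hormones guanylin and uroguanylin, was 343, 329 and 332 against 93.7, 54.6, 51.9 and 57.8 (2.40 ± 0.33). The microtubule-destabilising protein gene Stmn1 was 512, 557 and 498 against 61.6, 29.4, 154 and 119 (2.55 ± 0.43). In these 3 genes the groups did not overlap and the call held under all alternatives in which they were tested.

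The serine protease gene Prss8 was 607, 773 and 758 against 69.5, 29.8, 129.6 and 111 (3.04 ± 0.41), but its other probe set gave -0.08, so the probe sets disagree. Dclre1a, a DNA crosslink repair nuclease, was 702, 866 and 875 against 69.6, 53.8, 253 and 261 (2.68 ± 0.64) and lost its call without any of dwarf animals 3, 4 and 8 and wild type animals 82 and 84.

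Among the decreases, Phlda1 was 236, 226 and 150.0 against 849.9, 2017, 583 and 2303 (-2.62 ± 0.42), Keg1 was 473, 564 and 506 against 2443, 3504, 3977 and 2507 (-2.57 ± 0.25), and the cytochrome P450 Cyp2f2 was 1547, 1275 and 1412 against 5836, 4312, 6834 and 10130.0 (-2.20 ± 0.25). These 3 genes kept their calls under all alternatives, and none overlapped between the groups. Csrp3, a muscle LIM protein gene, was below the floor in all old dwarf mice and 346, 270.2, 163 and 255 in the young wild type mice (at least 4.55-fold lower). Reck, a membrane-anchored inhibitor of matrix proteases, was 31.7, 182 and 31.0 against 258, 444, 486 and 338 (-2.18 ± 0.58) and lost its call without dwarf animal 3 or 8 or wild type animal 82, 84 or 86. The metal-binding Mt1 was 24368, 19784 and 12530.0 against 17696, 3051, 4674 and 9709, overlapped through wild type animal 82 and did not pass (1.37 ± 0.45, adjusted p = 0.088); without animal 82 it did.

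Genes of protein handling and energy production stood near the background. Of 22 endoplasmic reticulum chaperones and folding enzymes 1 was lower (the oxidase Ero1b, -0.90 ± 0.19, lost without dwarf animal 4) and 0 higher, and of 12 cytosolic heat shock genes, 28 proteasome genes, 14 circadian clock genes, 15 genes of metallothioneins and iron handling and 17 cell cycle and senescence genes none passed in the limma fit, against 5.61% of all genes tested. At an unadjusted p under 0.05 these 5 lists had 1, 5, 2, 6 and 3 genes, of 1116 of all 5473 genes. Without wild type animal 88, 2 heat shock genes, 2 proteasome genes and 1 each of the clock and iron lists passed. Of 45 oxidative phosphorylation genes 1 was higher (Ndufa6, 0.70 ± 0.18) and 1 lower (Uqcrc2), with a median of 0.00, and of 17 cytosolic ribosomal protein genes 1 was higher (Rpl10a, 0.74 ± 0.18; its other probe set, at 0.59, did not pass). Both higher calls were lost without dwarf animal 3 or 4, without wild type animal 84 and with either covariate.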
